A study of Mus musculus with 9 samples.

Results

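The endoplasmic reticulum (ER) chaperones and the genes of the unfolded protein response were followed in C2C12, a mouse myoblast line whose cells divide in serum and fuse into myotubes when serum is withdrawn. The 39 genes were chosen by symbol from a list of ER folding factors, stress sensors and ER degradation genes, and all 39 were found among the 53700 gene IDs of the count table and passed the filter on low counts that left 18415 genes for testing. RNA was sequenced from 9 libraries. All wells were first starved for 12 h in OPTI-MEM, a medium low in serum. The 3 Val+PA libraries came from wells given valine at 0.45 mM for 24 h and palmitic acid at 75 µM for 12 h, the 3 Valine libraries from wells given valine at 0.45 mM for 36 h, and the 3 Control libraries from wells collected at the end of the starvation. Each group was a single plate of 6 wells, and 3 randomly drawn wells of each were sequenced. The p-values therefore reflect the variation among wells of a plate, and treatment, plate and hours in culture cannot be told apart. No valine-free well of the later time was analysed here. By its title, the study is about fat deposition within muscle, with autophagy and the metabolism of fatty acids as its pathways.

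The ER is where secreted and membrane proteins are threaded through a membrane channel, folded by chaperones, tied by disulfide bonds and given sugar chains. When unfolded chains build up, the membrane sensors IRE1 (gene Ern1), ATF6 and PERK (gene Eif2ak3) set off the unfolded protein response: IRE1 splices the Xbp1 message, ATF6 is cut to release a transcription factor, and PERK slows translation and favours synthesis of the transcription factor ATF4. The targets of ATF6 and XBP1 include the chaperones and the degradation machinery (ERAD) that returns misfolded chains to the cytosol. In muscle the same membrane system stores calcium, which several of these chaperones bind, and saturated fatty acids such as palmitic acid are widely used to provoke this response in cultured cells.

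Many genes of this response carry the ER stress response element (ERSE), which reads CCAAT, 9 bases of any kind and CCACG, or its shorter relative ERSE-II, which reads ATTGG, 1 base of any kind and CCACG, in their promoters. RefSeq promoters of build GRCm38.p6, from 250 bases before to 50 bases after the gene start, were available for 33 of the 39 genes, and both strands were searched. The ERSE was found in 10 of them and ERSE-II in 2, together 12 genes (36.4%), against 49 of all 27025 genes searched (0.181%), of which these 12 are a part. The windows of the 9 matched genes that passed the test between Valine and Control are shown because their response is what the values below describe. Each is written 5′ to 3′ on the strand of its gene, with the fixed letters of the match in capitals. CGTGG followed by ATTGG is the same ERSE read on the other strand, and positions count from 1 at the RefSeq gene start, with no 0.

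Hspa5 (chr2:34772020-34772048, plus strand, bases -70 to -42): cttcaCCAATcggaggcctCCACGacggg

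Hsp90b1 (chr10:86705513-86705676, minus strand, bases -232 to -69, 2 matches): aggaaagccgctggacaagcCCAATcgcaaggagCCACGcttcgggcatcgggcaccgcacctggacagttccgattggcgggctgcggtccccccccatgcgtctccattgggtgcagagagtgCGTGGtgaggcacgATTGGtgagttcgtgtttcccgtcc

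Dnajc3 (chr14:118937807-118937865, plus strand, bases -125 to -67): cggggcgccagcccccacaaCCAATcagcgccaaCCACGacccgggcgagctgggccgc

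Creld2 (chr15:88819500-88819558, plus strand, bases -146 to -88): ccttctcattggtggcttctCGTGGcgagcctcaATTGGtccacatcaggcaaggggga

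Calr (chr8:84847055-84847113, minus strand, bases -182 to -124): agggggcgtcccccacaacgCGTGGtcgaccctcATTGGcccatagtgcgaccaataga

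Pdia6 (chr12:17266471-17266529, plus strand, bases -118 to -60): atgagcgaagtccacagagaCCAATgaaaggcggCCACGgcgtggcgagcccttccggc

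Syvn1 (chr19:6046512-6046570, plus strand, bases -64 to -6): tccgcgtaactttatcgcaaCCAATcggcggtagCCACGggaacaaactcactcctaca

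Dnajb11 (chr16:22857847-22857867, plus strand, bases 3 to 23, ERSE-II): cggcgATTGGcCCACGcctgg

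Herpud1 (chr8:94386357-94386407, plus strand, bases -72 to -22, ERSE-II): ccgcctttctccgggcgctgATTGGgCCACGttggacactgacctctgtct

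Canx, Ero1lb and Derl3 were the other 3 genes with an ERSE, and none of them passed the test between Valine and Control. The windows of Hspa5 and Dnajb11 lie within exons of the GENCODE M21 annotation and are therefore shown with shorter flanks. Promoters of Hspa13, Hyou1, Manf, Atf6, Derl1 and Ostc were not in the table used.

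The libraries held 26750226 to 35976589 counts each. Levels are in CPM, counts relative to the effective size of the library after TMM scaling, and 1 count was worth 0.0271 to 0.0403 CPM. The 39 genes took 0.811% to 0.989% of a library's counts. Control 3 and Val+PA 2 differed most from their own groups, and 24 of the 39 genes (61.5%) deviated from their group means to the same side in both, against 61.0% of all tested genes. Markers of the labelled cell type were present, with the summed level of 8 myoblast markers at 3314 to 5309 CPM in Val+PA, 3476 to 3659 CPM in Valine and 2133 to 2416 CPM in Control. The summed level of 6 fibroblast or fibro-adipogenic markers was 1736 to 1992 CPM in Val+PA, 1814 to 1925 CPM in Valine and 421 to 558 CPM in Control. Of these lists 5 myoblast and 4 fibroblast markers were called higher in Valine than in Control, as were 20.8% of all tested genes. Among the 5 was Myog, with means of 5.29 CPM in Val+PA, 6.99 CPM in Valine and 0.487 CPM in Control. That was a 14.1-fold rise in Valine against Control. Myod1, Cdh15 and Pax7 of the myoblast list were not called. Kdr and Tek of the endothelial list and Cd68 of the immune list were called higher too. The sums rest on few genes. In Valine, Ly6a had a mean of 1399 CPM within a fibroblast sum of 1872 CPM. Des and Itga7 had 1947 and 1251 CPM within a myoblast sum of 3575 CPM. The 5 endothelial, 5 immune and 5 adipocyte markers summed to at most 3.49, 6.87 and 0.217 CPM in any library, with Emcn, Itgam, Adipoq, Lep and Retn at 0 throughout, and the part of these markers in the results below was not tested. In bulk RNA, fewer cells with a transcript and less of it per cell cannot be told apart. Fold changes are log2 values with their standard errors (SE), and calls are those of the edgeR quasi-likelihood test with Benjamini-Hochberg adjustment over all 18415 genes at 0.05.

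The comparison of Valine with Control addressed what differed after 36 h with valine. Of 11 lumenal chaperones 8 fell, as did the lectin chaperone gene Calr, while the oxidase gene Ero1l, the sensor gene Atf6 and 5 of 9 ERAD genes rose. Of the 39 genes 8 rose and 18 fell and 13 did not pass the test, so 66.7% were called, against 41.9% of all tested genes (20.8% higher and 21.1% lower). The shares here and below were not matched for level, and the 39 genes were chosen with earlier results of these data known. The median log2 fold change of the 39 genes was -0.22, with a range of -1.43 to 1.78, and the median over all tested genes was 0. In Val+PA against Control, which shares the Control libraries, 8 genes rose and 17 fell (64.1%, against 39.2% of all tested genes), with a median of -0.18 and a range of -1.0 to 1.88, where 20.4% of all tested genes were higher and 18.8% lower. In 20 of the 39 genes every Valine library was below every Control library and in 11 every one was above, together 31, against 59.0% of all tested genes (29.2% below and 29.7% above). For Val+PA against Control these numbers were 18 below and 9 above, against 45.5% of all tested genes (22.1% below and 23.5% above).

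**Figure D1:**
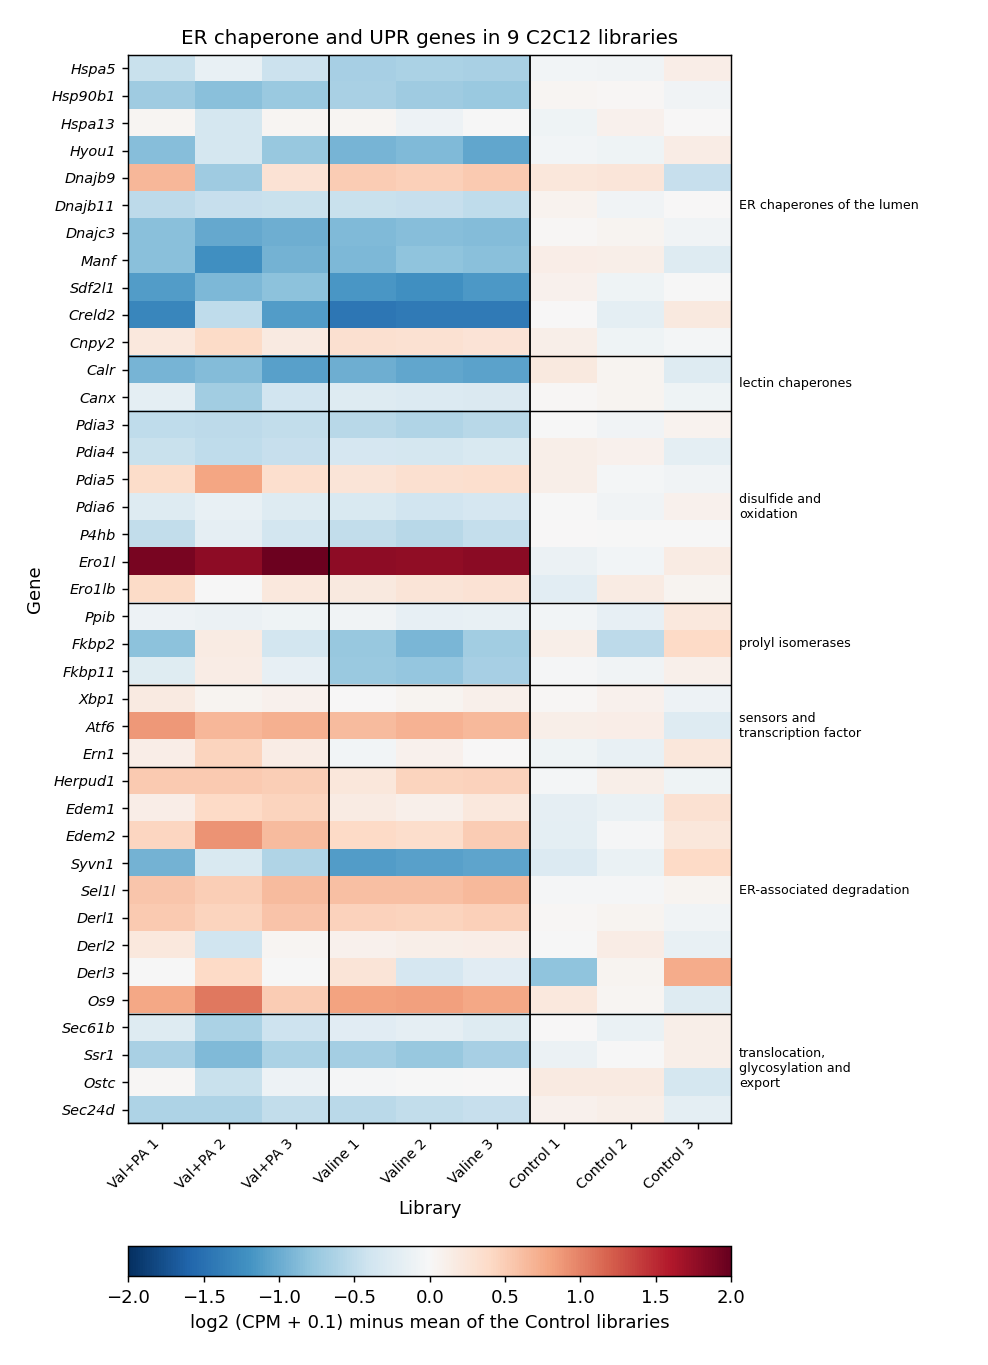
Level of each of the 39 genes in each of the 9 libraries, as log2 of CPM plus 0.1, minus the mean of that gene over the 3 Control libraries, with genes in rows grouped by role and libraries in columns from Val+PA through Valine to Control. Most lumenal chaperones are below 0 in the Val+PA and Valine columns, and Ero1l is the row furthest above 0, at a log2 fold change of 1.78 in Valine against Control.

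**Figure D2:**
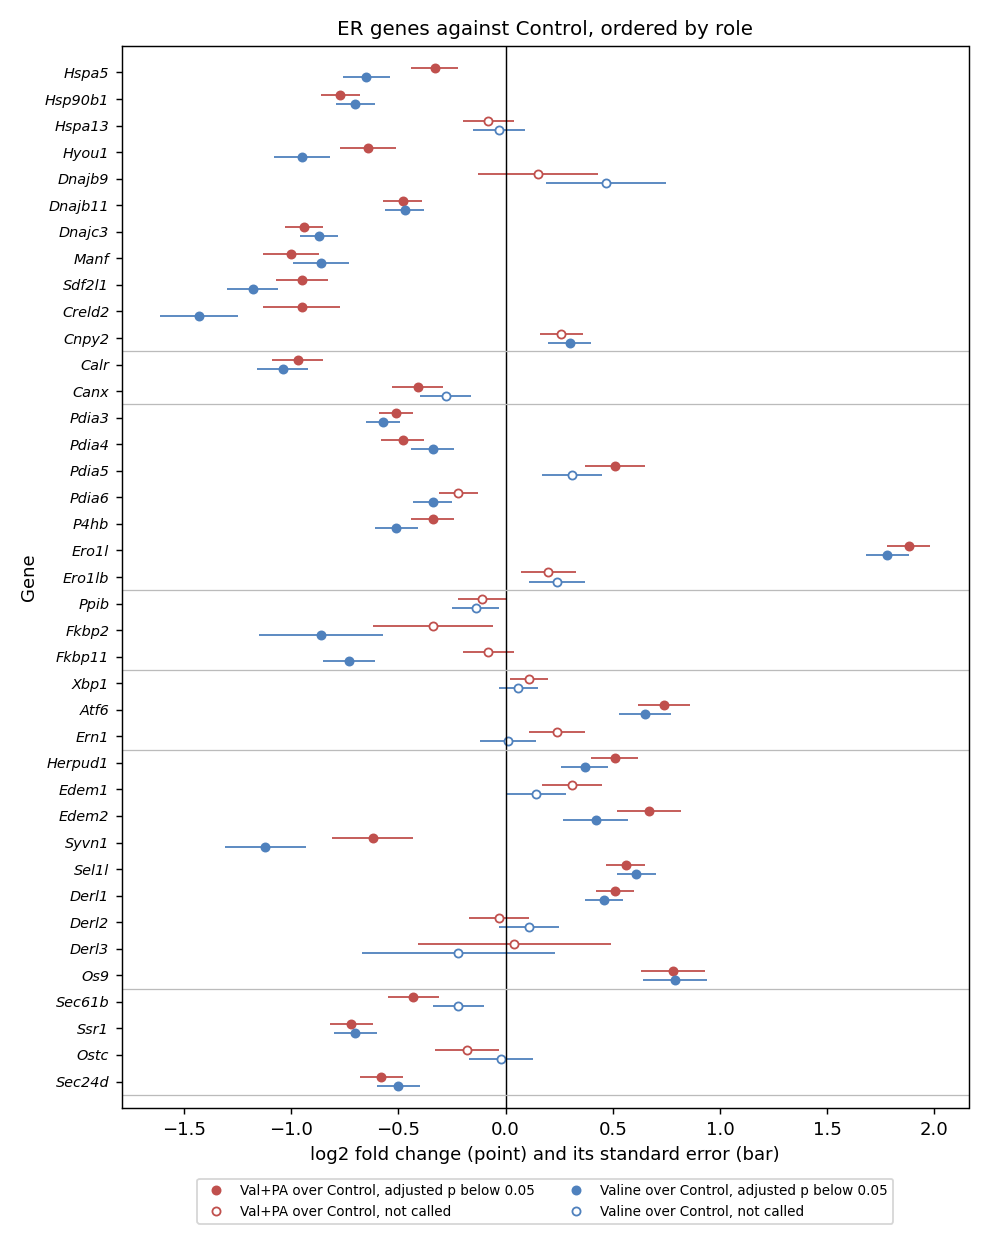
Log2 fold change of each gene in Valine against Control and in Val+PA against Control, with bars of 1 SE, filled points where the adjusted p is below 0.05 and genes in rows grouped by role. Both comparisons use the same 3 Control libraries. Values run from -1.43 (Creld2) to 1.78 (Ero1l) in Valine against Control.

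Lumenal chaperones were the largest role and had the most falls by number. Of 11 genes 8 fell and 1 rose in Valine against Control, with a median of -0.70. In Val+PA against Control 8 fell and none rose, with a median of -0.64. That was 81.8% called in Valine, against 41.9% of all tested genes, and 72.7% in Val+PA, against 39.2%. The share that fell in Val+PA was larger among the 2 lectin chaperones (100.0%) and the 4 genes of translocation, glycosylation and export (75.0%). The summed level of the 11 genes was 1808 ± 68.9 CPM in Val+PA, 1640 ± 5.62 CPM in Valine and 2475 ± 58.8 CPM in Control (SD, n = 3 each). Hspa5 (ENSMUSG00000026864, GRCm38 chromosome 2, 34771970 to 34777547, plus strand) encodes BiP, the central Hsp70 chaperone of the ER and the protein that holds the sensors silent. Its 3 libraries measured 892, 1097 and 903 CPM in Val+PA, 762, 782 and 772 CPM in Valine and 1161, 1149 and 1330 CPM in Control. All Valine libraries were below all Val+PA libraries, which in turn were below all Control libraries. The log2 fold change was -0.65 (SE 0.11, edgeR adjusted p = 0.000445) in Valine against Control and -0.33 (SE 0.11, edgeR adjusted p = 0.0263) in Val+PA against Control. The call of Hspa5 in Val+PA against Control was lost without Control 3, at an edgeR adjusted p = 0.0598, without Val+PA 1, at 0.0851, and without Val+PA 3, at 0.106.

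Creld2 (ENSMUSG00000023272, chromosome 15, 88819646 to 88826683, plus strand), a secreted ER protein with disulfide isomerase activity, had the largest fall of the 39 genes in Valine against Control, while in Val+PA against Control Manf, at -1.0, and Calr, at -0.97, were lower still. It measured 22.3, 38.7 and 25.5 CPM in Val+PA, 20.3, 20.6 and 20.7 CPM in Valine and 55.3, 48.4 and 63.0 CPM in Control. The 3 Valine libraries lay close together and below both other groups, and Val+PA 2 was the highest of its group. Valine was 2.70-fold lower than Control, a log2 fold change of -1.43 (SE 0.18, edgeR adjusted p = 7.16e-05), and Val+PA against Control gave -0.95 (SE 0.18, edgeR adjusted p = 0.00133). The test without both Control 3 and Val+PA 2, chosen after the data had been seen, gave -1.12 (SE 0.09) in Val+PA and -1.33 (SE 0.08) in Valine against Control.

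Sdf2l1, a component of the complex around BiP that keeps clients from aggregating, had the second largest fall in Valine against Control. Its levels were 11.8, 13.7 and 14.5 CPM in Val+PA, 11.4, 11 and 11.6 CPM in Valine and 27.4, 24.3 and 25.6 CPM in Control. Every Control library exceeded every library of the other groups, with a log2 fold change of -1.18 (SE 0.12, edgeR adjusted p = 1.11e-05) in Valine and -0.95 (SE 0.12, edgeR adjusted p = 5.99e-05) in Val+PA against Control. Hyou1, an Hsp110-like nucleotide exchange factor for BiP, showed 41.9, 58.7 and 44.7 CPM in Val+PA, 39.4, 40.8 and 36.7 CPM in Valine and 72.6, 70.6 and 83.3 CPM in Control. The Control libraries were again highest and the Valine libraries lowest, with log2 fold changes of -0.95 (SE 0.13, edgeR adjusted p = 0.000148) in Valine and -0.64 (SE 0.13, edgeR adjusted p = 0.00236) in Val+PA against Control.

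Dnajc3, a J-domain co-chaperone that also restrains PERK, measured 102, 89.7 and 92.3 CPM in Val+PA, 98.9, 101 and 100.0 CPM in Valine and 185, 189 and 174 CPM in Control. Val+PA and Valine overlapped, and both lay far below Control, with log2 fold changes of -0.94 (SE 0.09, edgeR adjusted p = 9.33e-06) in Val+PA and -0.87 (SE 0.09, edgeR adjusted p = 1.77e-05) in Valine against Control. Manf, a small secreted ER protein with a cytoprotective role, measured 95.3, 72.8 and 88.5 CPM in Val+PA, 91.1, 96.8 and 95.2 CPM in Valine and 187, 185 and 142 CPM in Control. Control 3 was the lowest of its group but above every treated library, and the log2 fold change was -1.0 (SE 0.13, edgeR adjusted p = 9.35e-05) in Val+PA and -0.86 (SE 0.13, edgeR adjusted p = 0.000271) in Valine against Control. Hsp90b1, which encodes the ER Hsp90 GRP94, stood at 239, 219 and 234 CPM in Val+PA, 249, 241 and 235 CPM in Valine and 404, 399 and 375 CPM in Control. The treated groups lay side by side below Control, at log2 fold changes of -0.77 (SE 0.09, edgeR adjusted p = 3.26e-05) in Val+PA and -0.70 (SE 0.09, edgeR adjusted p = 6.28e-05) in Valine against Control. On the opposite strand Hsp90b1 shares 415 exon bases with 1810014B01Rik and Manf 146 with Dcaf1. The mean counts were 9301.8 for Hsp90b1 and 78.4 for 1810014B01Rik, and 3779.6 for Manf and 2405.0 for Dcaf1. How reads in the shared bases were counted is uncertain, since the strand setting of the counting is not given in the sources used here.

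Dnajb11, another J-domain partner of BiP, fell by less, at -0.48 (SE 0.09) in Val+PA and -0.47 (SE 0.09) in Valine against Control. Hspa13, an Hsp70 relative of the microsomes, did not pass either test, at -0.08 (SE 0.12) in Val+PA and -0.03 (SE 0.12) in Valine. Dnajb9, a J-domain protein that returns IRE1 to its BiP-bound state, did not pass either test against Control with all libraries. It had 50.3, 19.3 and 38.5 CPM in Val+PA, 44.9, 44.1 and 45.5 CPM in Valine and 36.8, 37.5 and 22.8 CPM in Control. Its lowest values were in the 2 libraries that stood apart, Val+PA 2 and Control 3, and no comparison passed the test (edgeR adjusted p = 0.198 in Valine and 0.695 in Val+PA against Control). The log2 fold change in Valine against Control was 0.47 (SE 0.28), and it passed the edgeR test at an adjusted p = 0.042 without Val+PA 2, and at 0.0199, with a fold change of 0.28 (SE 0.09), without both libraries. Cnpy2, a saposin-like ER protein, was the only lumenal chaperone to pass upwards, at 0.30 (SE 0.10, edgeR adjusted p = 0.0327) in Valine against Control. That call was lost without Control 2, Control 3 or any single Valine library, at edgeR adjusted p-values up to 0.124, and with a replicate block, at 0.0518.

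**Figure D3:**
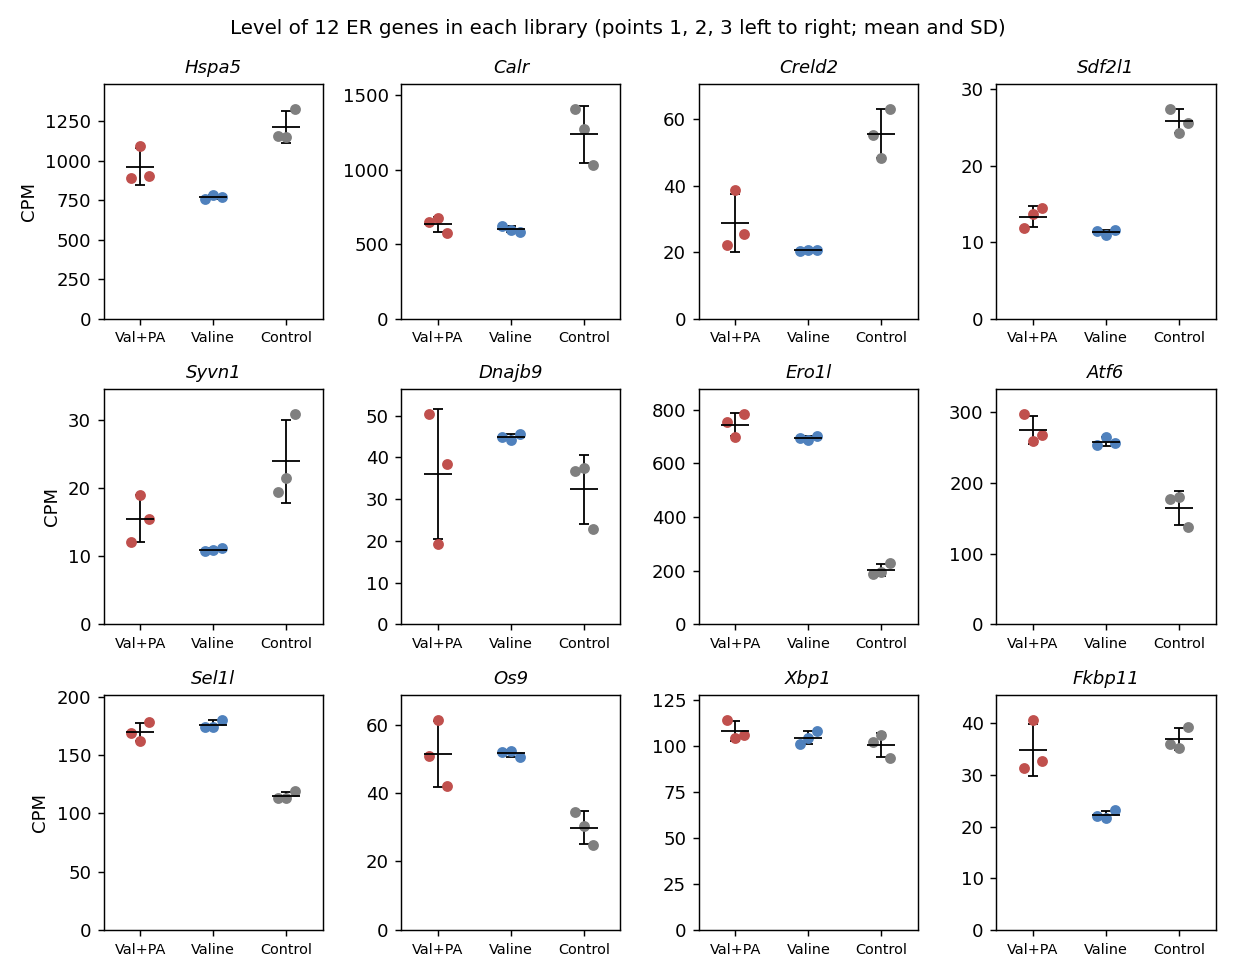
CPM of 12 of the genes in each library, a panel per gene with its own axis from 0, with Val+PA left, Valine in the middle and Control right, a point per library, a line at the group mean and bars of 1 SD. Creld2, Sdf2l1 and Hspa5 are highest in Control, Ero1l, Atf6 and Os9 are lowest there, and the Xbp1 groups overlap.

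The lectin chaperones retain glycoproteins until they are folded. Calr, the lumenal calcium-binding lectin calreticulin, had 646, 675 and 577 CPM in Val+PA, 624, 596 and 583 CPM in Valine and 1407, 1275 and 1031 CPM in Control. The treated groups overlapped and no Control library came near them, with log2 fold changes of -0.97 (SE 0.12, edgeR adjusted p = 5.74e-05) in Val+PA and -1.04 (SE 0.12, edgeR adjusted p = 3.22e-05) in Valine against Control. Canx, its membrane-bound relative calnexin, was lower in Val+PA than in Control, at -0.41 (SE 0.12, edgeR adjusted p = 0.0159), a call that was lost without Control 2 (edgeR adjusted p = 0.0531). Valine against Control did not pass for Canx, at -0.28 (SE 0.12, edgeR adjusted p = 0.0824), and passed without Val+PA 2, at -0.27 (SE 0.07, edgeR adjusted p = 0.0087).

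Of 7 disulfide and oxidation genes 2 rose and 3 fell in Val+PA and 1 rose and 4 fell in Valine against Control. In each comparison 71.4% were called, against 39.2% of all tested genes in Val+PA and 41.9% in Valine. Ero1l (ENSMUSG00000021831, chromosome 14, 45283087 to 45318771, minus strand) encodes the oxidase ERO1α, which recharges the isomerases with disulfides, and had the largest rise of the 39 genes in both comparisons with Control. Its levels were 753, 697 and 783 CPM in Val+PA, 696, 688 and 704 CPM in Valine and 186, 194 and 227 CPM in Control. Every treated library exceeded every Control library by a wide margin, with a 3.68-fold rise in Val+PA (log2 1.88, SE 0.10, edgeR adjusted p = 1.44e-07) and a 3.44-fold rise in Valine (log2 1.78, SE 0.10, edgeR adjusted p = 2.13e-07). Ero1lb, the related oxidase of secretory cells, did not pass, at 0.20 (SE 0.13) in Val+PA and 0.24 (SE 0.13) in Valine against Control.

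Isomerases of the disulfide group pair and reshuffle cysteines in their clients. P4hb, the founding protein disulfide isomerase and a subunit of collagen prolyl hydroxylase, fell to -0.34 (SE 0.10, edgeR adjusted p = 0.0145) in Val+PA and -0.51 (SE 0.10, edgeR adjusted p = 0.00124) in Valine against Control. The P4hb call in Val+PA was lost without Val+PA 1 (edgeR adjusted p = 0.0539) and without Val+PA 3 (0.0546). Pdia3, the partner of calnexin and calreticulin, fell in both, at -0.51 (SE 0.08) in Val+PA and -0.57 (SE 0.08) in Valine, with 541 to 554 CPM in Val+PA, 514 to 532 CPM in Valine and 744 to 816 CPM in Control. Pdia4 fell too, at -0.48 (SE 0.10, edgeR adjusted p = 0.00283) in Val+PA and -0.34 (SE 0.10, edgeR adjusted p = 0.0193) in Valine. The Pdia4 call in Valine was lost without Control 1, Control 2 or any single Valine library, at edgeR adjusted p-values of 0.0604 to 0.0822. For Pdia6, an isomerase that also acts on IRE1, the fall of -0.34 (SE 0.09, edgeR adjusted p = 0.00856) passed in Valine, and was lost without Valine 2 (0.0502). Pdia6 did not pass in Val+PA, at -0.22 (SE 0.09, edgeR adjusted p = 0.0633), but did so without Val+PA 2, at -0.26 (edgeR adjusted p = 0.017). Pdia5 went the other way, at 0.51 (SE 0.14, edgeR adjusted p = 0.011) in Val+PA against Control, while in Valine against Control it gave 0.31 (SE 0.14, edgeR adjusted p = 0.0958), or 0.31 (SE 0.09, edgeR adjusted p = 0.0163) without Val+PA 2.

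Prolyl isomerases turn the peptide bonds before proline in folding chains. Fkbp11 (ENSMUSG00000003355, chromosome 15, 98724366 to 98728198, minus strand), a membrane-anchored FK506-binding protein of secretory cells, measured 31.3, 40.7 and 32.8 CPM in Val+PA, 22.1, 21.6 and 23.2 CPM in Valine and 36.1, 35.3 and 39.4 CPM in Control. The Valine libraries were lowest, and Val+PA and Control overlapped. The fall in Valine against Control was -0.73 (SE 0.12, edgeR adjusted p = 0.000494), and Val+PA against Control gave -0.08 (SE 0.12, edgeR adjusted p = 0.635). Fkbp2, at 1.57 to 4.03 CPM in any library, passed in Valine against Control, at -0.86 (SE 0.29, edgeR adjusted p = 0.0323), a call lost without Control 1, Control 3 or any single Valine library, at 0.0679 to 0.115. Ppib, the ER cyclophilin B, gave -0.11 (SE 0.11) in Val+PA and -0.14 (SE 0.11) in Valine against Control. Its level is uncertain, since it shares 825 exon bases with Snx22 on the opposite strand.

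Of the 3 genes of sensing and transcription Atf6 rose. In each comparison with Control 33.3% were called, below the 39.2% of all tested genes in Val+PA and the 41.9% in Valine. Atf6 (ENSMUSG00000026663, chromosome 1, 170704674 to 170867771, minus strand) measured 297, 259 and 268 CPM in Val+PA, 253, 265 and 256 CPM in Valine and 177, 180 and 137 CPM in Control. Control 3 was the lowest library and all treated libraries were above all Controls, at log2 fold changes of 0.74 (SE 0.12, edgeR adjusted p = 0.000342) in Val+PA and 0.65 (SE 0.12, edgeR adjusted p = 0.000821) in Valine. Xbp1, whose message is the substrate of IRE1, stood at 114, 104 and 106 CPM in Val+PA, 101, 104 and 108 CPM in Valine and 102, 106 and 93.2 CPM in Control. The Xbp1 groups overlapped, with log2 fold changes of 0.11 (SE 0.09, edgeR adjusted p = 0.386) in Val+PA and 0.06 (SE 0.09, edgeR adjusted p = 0.63) in Valine against Control. Counts per gene do not part the spliced from the unspliced Xbp1 message. Ern1, the gene of IRE1, had 49.6, 61.6 and 50.6 CPM in Val+PA, 43.9, 48.3 and 45.9 CPM in Valine and 42.7, 41.1 and 53.4 CPM in Control. Control 3 reached into the Val+PA range, and neither test passed, at 0.24 (SE 0.13, edgeR adjusted p = 0.163) in Val+PA and 0.01 (SE 0.13, edgeR adjusted p = 0.957) in Valine against Control. Without Control 3, Ern1 passed in Val+PA against Control, at 0.37 (SE 0.12, edgeR adjusted p = 0.0292).

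The 9 ERAD genes ran mostly opposite to the chaperones: 5 rose and 1 fell in each comparison with Control, with a median of 0.51 in Val+PA and 0.37 in Valine. In each 66.7% were called, against 39.2% of all tested genes in Val+PA and 41.9% in Valine. The summed level of the 9 genes was 1187 ± 36.7 CPM in Val+PA, 1142 ± 19.9 CPM in Valine and 882 ± 24.5 CPM in Control (SD, n = 3 each). Os9, a lectin that reads trimmed sugar chains on misfolded glycoproteins, measured 50.8, 61.4 and 42.1 CPM in Val+PA, 52.0, 52.3 and 50.4 CPM in Valine and 34.4, 30.3 and 24.8 CPM in Control. No treated library fell into the Control range, and the log2 fold change was 0.78 (SE 0.15, edgeR adjusted p = 0.0014) in Val+PA and 0.79 (SE 0.15, edgeR adjusted p = 0.00129) in Valine. Sel1l, the scaffold that stabilises the ubiquitin ligase HRD1, had 169, 162 and 178 CPM in Val+PA, 174, 174 and 180 CPM in Valine and 113, 113 and 119 CPM in Control. It was higher in all treated libraries, at 0.56 (SE 0.09, edgeR adjusted p = 0.000341) in Val+PA and 0.61 (SE 0.09, edgeR adjusted p = 0.000168) in Valine.

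Derl1, a rhomboid-like membrane protein of the retrotranslocation channel, measured 568, 537 and 585 CPM in Val+PA, 545, 537 and 550 CPM in Valine and 400, 409 and 376 CPM in Control. Its treated groups overlapped above Control, at 0.51 (SE 0.09, edgeR adjusted p = 0.00058) in Val+PA and 0.46 (SE 0.09, edgeR adjusted p = 0.00112) in Valine. Edem2, which starts the mannose trimming that marks glycoproteins for disposal, had 25.1, 35 and 29.1 CPM in Val+PA, 24.6, 23.9 and 26.5 CPM in Valine and 16.2, 18.4 and 21.7 CPM in Control. The groups did not overlap with Control, at 0.67 (SE 0.15, edgeR adjusted p = 0.00326) in Val+PA and 0.42 (SE 0.15, edgeR adjusted p = 0.0376) in Valine, where the call was lost in 6 of 9 fits without a single library (Control 1, Control 2, Val+PA 3 or any Valine library), at 0.0522 to 0.146. Herpud1, a ubiquitin-like membrane protein of the HRD1 complex, measured 43.3, 43.3 and 42.2 CPM in Val+PA, 35.2, 41.0 and 41.3 CPM in Valine and 29.4, 32.7 and 28.4 CPM in Control. It was lowest in Control, at 0.51 (SE 0.11, edgeR adjusted p = 0.00257) in Val+PA and 0.37 (SE 0.11, edgeR adjusted p = 0.0145) in Valine, where the call was lost without Control 1, Valine 2 or Valine 3, at 0.0536 to 0.068.

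Syvn1 (ENSMUSG00000024807, chromosome 19, 6046576 to 6053712, plus strand), the gene of the ligase HRD1 itself, was the single ERAD gene that fell. It had 12.1, 19.0 and 15.5 CPM in Val+PA, 10.8, 11 and 11.2 CPM in Valine and 19.5, 21.5 and 30.9 CPM in Control. The Valine libraries were lowest and Control 3 highest, with log2 fold changes of -1.12 (SE 0.19, edgeR adjusted p = 0.000645) in Valine and -0.62 (SE 0.19, edgeR adjusted p = 0.0211) in Val+PA against Control. The call in Val+PA was lost without Control 3, Val+PA 1 or Val+PA 3, at edgeR adjusted p-values of 0.0601 to 0.0781. Syvn1 shares 91 exon bases with Mrpl49 and Derl2 231 with Mis12, both on the opposite strand. The mean counts were 531.3 for Syvn1 and 1199.9 for Mrpl49, and 2548.7 for Derl2 and 916.4 for Mis12. Edem1, the best known of the mannosidase-like factors, did not pass, at 0.31 (SE 0.14, edgeR adjusted p = 0.0872) in Val+PA and 0.14 (SE 0.14) in Valine, and without Control 3 both passed, at 0.48 (edgeR adjusted p = 0.00483) in Val+PA and 0.32 (edgeR adjusted p = 0.0388) in Valine. Edem1 also passed in Val+PA without Val+PA 1, at 0.41 (edgeR adjusted p = 0.0392). Derl2 did not pass, at -0.03 (SE 0.14) in Val+PA and 0.11 (SE 0.14) in Valine. Derl1 and Ero1lb have near-identical copies, Gm35638 and Gm18562, whose mean counts of 246.9 and 26.2 compare with 16580.9 and 808.1 for Derl1 and Ero1lb. Derl3, the derlin of secretory tissues, was at 0.224 to 0.846 CPM in any library, and no difference was detectable at this depth.

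All 4 genes of translocation, glycosylation and export had negative log2 fold changes against Control, and 3 fell in Val+PA and 2 in Valine. Of all tested genes 18.8% were lower in Val+PA and 21.1% in Valine. Whether these 4 genes differed from all tested genes was not tested. In the list of 31 genes of translocation, signal peptide removal and N-glycan transfer below, 29.0% were called in Val+PA and 25.8% in Valine. Those shares were below the 39.2% and 41.9% of all tested genes. Ssr1, a subunit of the translocon-associated TRAP complex, fell by 0.72 (SE 0.10) in Val+PA and 0.70 (SE 0.10) in Valine on the log2 scale. Sec24d, a cargo-selecting subunit of the COPII coat that buds vesicles from the ER, fell by 0.58 (SE 0.10) in Val+PA and 0.50 (SE 0.10) in Valine. Sec61b, the small subunit of the membrane channel, passed in Val+PA only, at -0.43 (SE 0.12, edgeR adjusted p = 0.0118), against -0.22 (SE 0.12, edgeR adjusted p = 0.146) in Valine, and the difference between these 2 values is the comparison of Val+PA with Valine, which did not pass (edgeR adjusted p = 0.435). Ostc, a subunit of the oligosaccharyltransferase, gave -0.18 (SE 0.15) in Val+PA and -0.02 (SE 0.15) in Valine.

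Side by side, 7 genes were called higher in both comparisons with Control (Ero1l, Atf6, Herpud1, Edem2, Sel1l, Derl1 and Os9) and 15 were called lower in both (Hspa5, Hsp90b1, Hyou1, Dnajb11, Dnajc3, Manf, Sdf2l1, Creld2, Calr, Pdia3, Pdia4, P4hb, Syvn1, Ssr1 and Sec24d). Both comparisons use the same Control libraries, and 41.9% of all tested genes were called in Valine and 39.2% in Val+PA against Control. The share of all tested genes called in both was not worked out. Whether the overlap was particular to the 39 genes was therefore not tested. Calls in Valine alone were Cnpy2 upwards and Pdia6, Fkbp2 and Fkbp11 downwards, and calls in Val+PA alone were Pdia5 upwards and Canx and Sec61b downwards. The other 10 genes were called in neither. Read per length, on the normalized scale the authors deposited, P4hb had the highest level of the 39 in every group, with a mean signal of 994 ± 107 in Val+PA, 888 in Valine and 1231 in Control (SD, n = 3). The mean signal of Hspa5 was 476 in Val+PA, 382 in Valine and 585 in Control, and that of Calr 459 in Val+PA, 437 in Valine and 880 in Control, while Derl3 had the lowest level in every group.

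Val+PA and Valine differ by the 12 h with palmitic acid, by the hours with valine (24 h in Val+PA and 36 h in Valine) and by plate, which cannot be told apart. None of the 39 genes passed the edgeR test in either direction, as none of the 18415 tested genes did (0.0% called), although 2428 of all genes (13.2%) had an unadjusted p below 0.05. The values of 22 genes were positive and 17 negative, with a median log2 fold change of 0.05 and a range of -0.31 to 0.65, and the median over all tested genes was 0. In 10 genes every Val+PA library was above every Valine library (Hspa5, Hyou1, Sdf2l1, Creld2, Pdia3, Pdia6, Fkbp11, Ern1, Herpud1 and Syvn1), against 12.6% of all tested genes, and in 1 gene, Pdia4, every one was below, against 12.0%.

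Fkbp11 had the smallest p of the 39 in Val+PA against Valine. The levels given above for Fkbp11 make Val+PA higher in 3 of 3 libraries, with a log2 fold change of 0.65 (SE 0.12, edgeR adjusted p = 0.168). It passed with DESeq2 (adjusted p = 0.000922), with no filter on low counts (edgeR adjusted p = 0.00173) and without both Control 3 and Val+PA 2, at 0.52 (SE 0.08, edgeR adjusted p = 0.00244). Hspa5 followed at 0.32 (SE 0.11, edgeR adjusted p = 0.321), with Val+PA 2 the highest of its group, and passed without those 2 libraries, at 0.22 (SE 0.05, edgeR adjusted p = 0.0291). Creld2 gave 0.49 (SE 0.18, edgeR adjusted p = 0.339), and passed with no filter (edgeR adjusted p = 0.0363). Without both libraries Creld2 measured 0.21 (SE 0.09, edgeR adjusted p = 0.213). Over the alternatives, up to 476 of all genes were called higher and up to 292 lower in Val+PA against Valine.

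Syvn1 gave 0.50 (SE 0.19, edgeR adjusted p = 0.345), Hyou1 0.31 (SE 0.13, edgeR adjusted p = 0.365) and Sdf2l1 0.23 (SE 0.12, edgeR adjusted p = 0.409). Without the 2 libraries that stood apart these values were 0.32 (SE 0.11), 0.15 (SE 0.07) and 0.21 (SE 0.11), none of which passed. Ero1l, Atf6 and Xbp1 gave 0.10 (SE 0.10), 0.09 (SE 0.11) and 0.05 (SE 0.09).

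**Figure D4:**
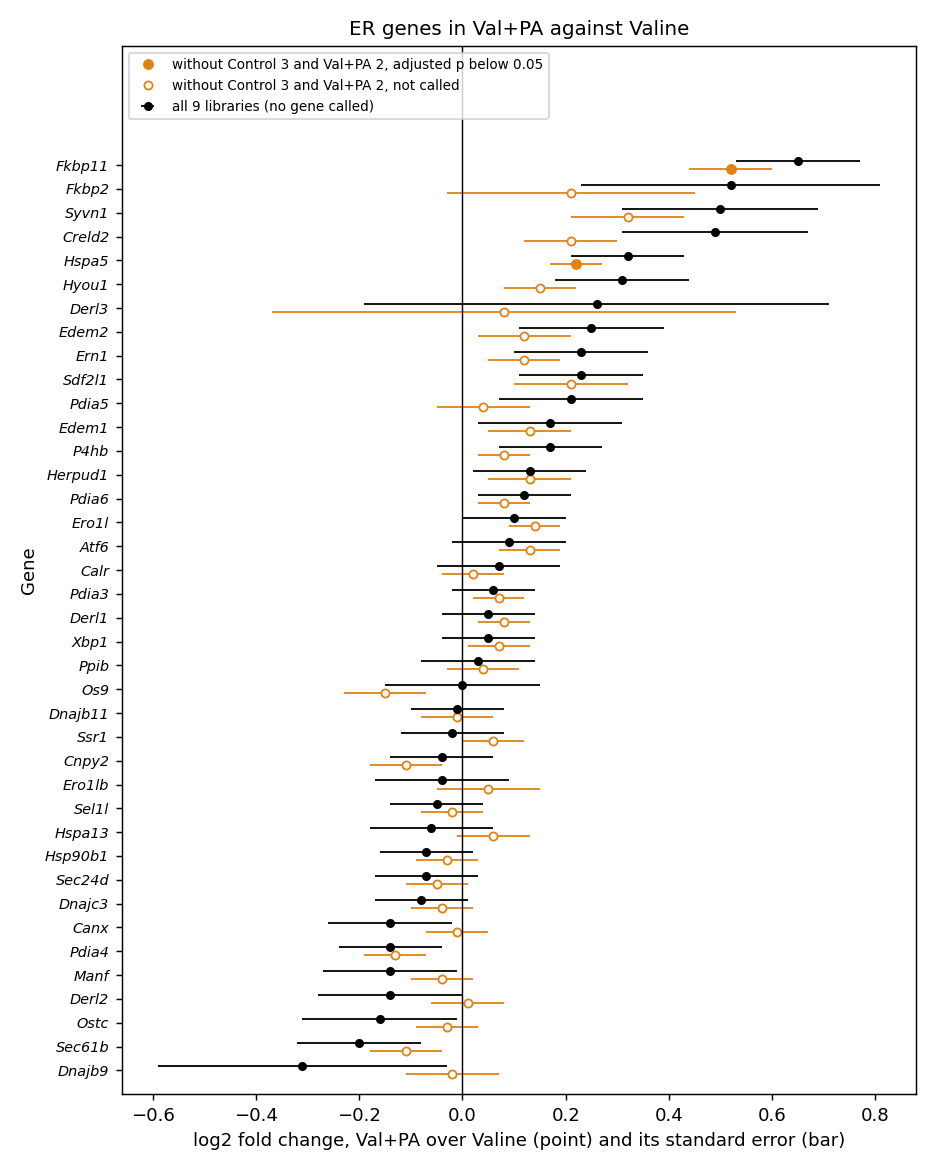
Log2 fold change of each of the 39 genes in Val+PA against Valine, ordered by size, with bars of 1 SE, in black from all 9 libraries and in orange from the fit without Control 3 and Val+PA 2. Values run from -0.31 (Dnajb9) to 0.65 (Fkbp11), and no gene passed the test with all libraries.

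Genes with a promoter match were compared with those without. Of the 12 genes with an ERSE or ERSE-II, 8 fell and 1 rose in Valine against Control, with a median log2 fold change of -0.56, and in Val+PA against Control the numbers were again 8 and 1, with a median of -0.45. Of all tested genes 21.1% were lower and 20.8% higher in Valine, and 18.8% lower and 20.4% higher in Val+PA. Herpud1 was the gene that rose. Of the 21 genes with a promoter but neither element, 8 fell and 5 rose in Valine (median 0.01) and 7 fell and 5 rose in Val+PA (median -0.03). Genes outside the 39 that carry either element numbered 37, of which 22 were tested, and 3 of these fell and 1 rose in Valine (median 0.10), and 5 fell and 1 rose in Val+PA (median -0.04), numbers that are to be read beside the same shares of all tested genes. The unfolded protein response element TGACGTGG was found in the promoter of Sec24d, against 0.676% of all promoters of that length, and the ATF4-type element TGATGNAA in those of Cnpy2 and Herpud1, against 3.969%. A match of letters is a description of the sequence and not a test of binding.

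**Figure D5:**
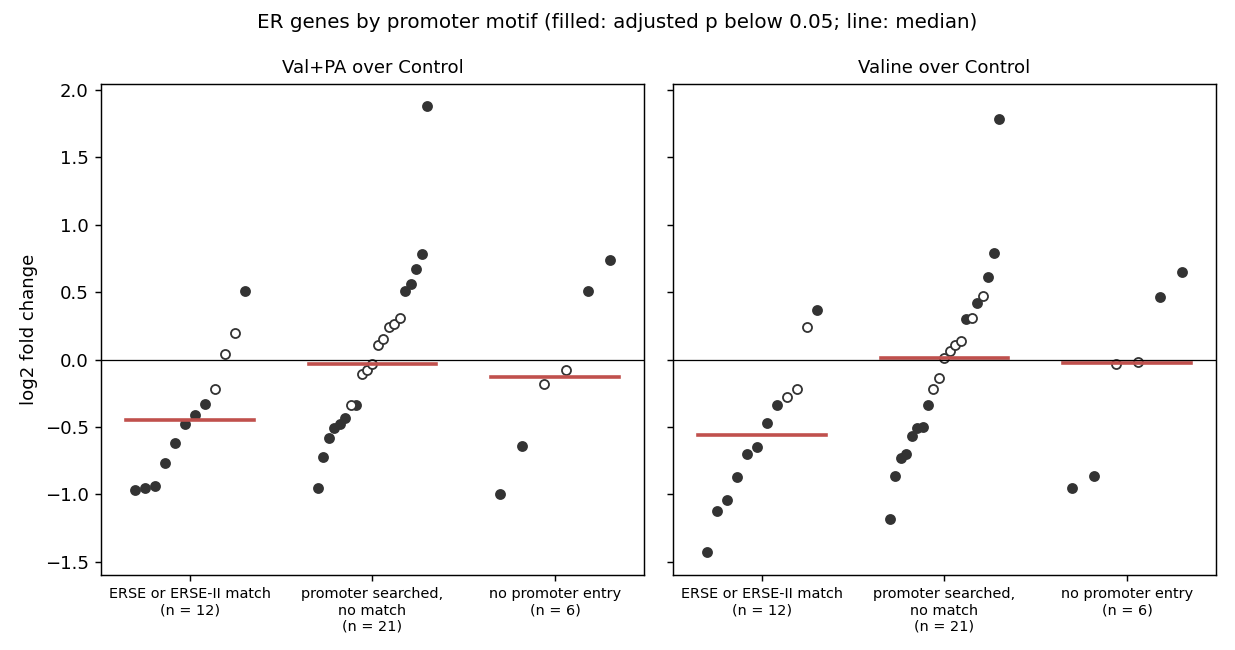
Log2 fold change in Val+PA against Control (left) and Valine against Control (right) of the genes with an ERSE or ERSE-II in the RefSeq promoter, of those with a promoter and neither element, and of those with no promoter entry, a point per gene, filled where the adjusted p is below 0.05, with a line at the group's median. The medians are -0.45, -0.03 and -0.13 in Val+PA and -0.56, 0.01 and -0.02 in Valine.

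Other genes of the pathway were read from 7 lists. Of 17 genes of the PERK arm and targets of ATF4, 11 rose and 1 fell in Valine against Control (70.6% called, against 41.9% of all tested genes, of which 20.8% were higher; median 0.65) and 12 rose and none fell in Val+PA against Control (70.6% called, against 39.2% of all tested genes, of which 20.4% were higher; median 0.70). Ddit3, the gene of the stress factor CHOP, had 43.0, 48.9 and 36.5 CPM in Val+PA, 34.8, 37.9 and 39.3 CPM in Valine and 26.3, 23.8 and 21.3 CPM in Control. The treated groups overlapped above Control, at 0.84 (SE 0.13, edgeR adjusted p = 0.000308) in Val+PA and 0.65 (SE 0.13, edgeR adjusted p = 0.00182) in Valine. Trib3, a pseudokinase induced by ATF4 and CHOP, rose by 1.23 (SE 0.16) in Val+PA and 0.96 (SE 0.16) in Valine, and Vldlr, a lipoprotein receptor, by 3.10 (SE 0.14) in Val+PA and 3.00 (SE 0.14) in Valine. Atf4 itself passed in Val+PA, at 0.39 (SE 0.10, edgeR adjusted p = 0.00889), and gave 0.16 (SE 0.10, edgeR adjusted p = 0.216) in Valine, where it passed without Control 3, at 0.25 (edgeR adjusted p = 0.0487). Chac1, a glutathione-degrading enzyme, rose by 0.36 (SE 0.11, edgeR adjusted p = 0.0175) in Val+PA and 0.31 (SE 0.11, edgeR adjusted p = 0.0336) in Valine. The Chac1 call in Val+PA was lost without Control 2 (edgeR adjusted p = 0.0935), and that in Valine without any of 5 single libraries (Control 1, Control 2 or any Valine library), at up to 0.151.

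Eif2ak3, the gene of PERK, did not pass, at -0.06 (SE 0.10) in Val+PA and -0.17 (SE 0.10) in Valine against Control. Neither did Ppp1r15a, which encodes the phosphatase subunit GADD34 that ends the translation block, at 0.14 (SE 0.21) in Val+PA and -0.48 (SE 0.21, edgeR adjusted p = 0.0934) in Valine, where it passed without Val+PA 2 (edgeR adjusted p = 0.0195). Its constitutive relative Ppp1r15b fell in Valine, at -0.35 (SE 0.12, edgeR adjusted p = 0.0372), a call lost without Control 3, at -0.18 (edgeR adjusted p = 0.117), and without Val+PA 3 or any Valine library, at 0.0541 to 0.126. Of the 17 genes none passed in Val+PA against Valine, 15 had positive values, and in 9 every Val+PA library was above every Valine library, against 12.6% of all tested genes. Atf3, a stress-induced transcription factor, had the smallest p among them, with 73.8, 97.2 and 70.1 CPM in Val+PA, 50, 56.2 and 51.5 CPM in Valine and 23.4, 24.2 and 28.3 CPM in Control. The 3 groups of Atf3 did not overlap, and Val+PA against Valine gave 0.61 (SE 0.13, edgeR adjusted p = 0.192), or 0.45 (SE 0.07, edgeR adjusted p = 0.0032) without Control 3 and Val+PA 2. Atf3 also passed with DESeq2 (adjusted p = 0.0102) and with no filter on low counts (edgeR adjusted p = 0.00155). Ppp1r15a passed with no filter too (edgeR adjusted p = 0.0481). Over the alternatives, up to 5 of the 17 genes were called higher and 0 lower, beside up to 476 and 292 of all genes.

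The remaining 6 lists are given with the share of their tested genes that was called, to be read beside the 39.2% of all tested genes called in Val+PA and the 41.9% called in Valine against Control. Of 41 tested further ER folding factors 14 rose and 2 fell in Val+PA (39% called), and 16 rose and 3 fell in Valine against Control (46.3%), a contrast to the lumenal chaperones among the 39 that was not tested. Rcn3, a calcium-binding reticulocalbin, had the largest rise in Valine, at 1.19 (SE 0.18), and Tmx1, a membrane-bound thioredoxin, the largest fall, at -0.56 (SE 0.16). Among 26 further ERAD genes 3 rose and 4 fell in Val+PA and 2 rose and 5 fell in Valine (26.9% called in each, below the share of all tested genes), with Erlec1, a lectin like Os9, at 1.04 (SE 0.18) and Selenos, a selenoprotein of the retrotranslocation complex, at -0.59 (SE 0.09) in Valine. Of 14 tested stress sensors and ER-bound transcription factors 5 rose and 3 fell in Val+PA (57.1% called) and 4 rose and 3 fell in Valine (50%). Nfe2l1, an ER-anchored regulator of proteasome genes, rose by 0.72 (SE 0.14) in Valine, and Bax, a pro-apoptotic protein that also binds IRE1, gave -1.10 (SE 0.15). Map3k5, the kinase downstream of IRE1, had the largest fall of that list, at -1.70 (SE 0.42), from no more than 1.29 CPM in any library.

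Of 31 genes of translocation, signal peptide removal and N-glycan transfer none rose and 9 fell in Val+PA (29.0% called), and 2 rose and 6 fell in Valine (25.8%), both below the share of all tested genes. Spcs3, a signal peptidase subunit, fell by 0.59 (SE 0.13) in Valine on the log2 scale. Srp72, a subunit of the signal recognition particle, rose by 0.47 (SE 0.18, edgeR adjusted p = 0.0481), a call lost without Control 3, Val+PA 3 or any Valine library, at 0.0643 to 0.142. Of 28 genes of ER exit by COPII 1 rose and 9 fell in Val+PA (35.7% called) and 2 rose and 7 fell in Valine (32.1%), with Ergic3, a cargo receptor, at 0.90 (SE 0.14) and Sec23b, a coat subunit, at -0.66 (SE 0.11) in Valine. Of 8 ER-phagy receptors 2 rose and 1 fell in each comparison with Control (37.5% called). Ccpg1, the receptor induced by the unfolded protein response, gave 2.06 (SE 0.48) in Valine from no more than 0.791 CPM, and Retreg1, the receptor FAM134B, gave -0.42 (SE 0.14, edgeR adjusted p = 0.0272), a call lost without Control 3, at -0.29 (edgeR adjusted p = 0.0975), and without any Valine library. No gene of these 6 lists passed in Val+PA against Valine. The genes with the smallest p in 5 of the lists were Dnajb14 at -0.35 (SE 0.13), Bax at 0.43 (SE 0.15), Sec61g at -0.33 (SE 0.13), Tmed9 at 0.50 (SE 0.19) and Retreg2 at 0.51 (SE 0.19). With no filter on low counts Tmed9 (edgeR adjusted p = 0.0171) and Retreg2 (0.00773) passed. Over the alternatives, up to 2 ER-phagy receptors, 1 gene of ER exit and 1 further ERAD gene were called higher, and 0 of these lists lower.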

How the data were processed

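The labels' protocols describe strand-specific libraries. The submitters' processing notes name HISAT2, featureCounts, DESeq2 and GRCm38, with no version and no strand setting. The authors deposited raw read counts per gene and a normalized signal per gene length, used here as an alternative unit and for levels between genes. Libraries took their groups from their labels, with a shortened code in the Val+PA columns. Symbols and coordinates came from GENCODE M21 and promoters from RefSeq.

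Counts were filtered with filterByExpr, scaled by TMM and tested with edgeR 4.0.16 under R 4.3.3 (quasi-likelihood, group means, all 9 libraries, 6 residual degrees of freedom; two-sided, Benjamini-Hochberg at 0.05). An SE is the size of the log2 fold change over the root of its F statistic. The 39 genes, the lists and the naming rule were chosen with earlier results of these data known. By that rule, values per library are given for the 6 largest called rises and falls in Valine against Control, the 6 smallest p-values in Val+PA against Valine and 10 fixed genes, and from each list the largest called rise and fall and the smallest p, of which 1 is not reported here. Alternatives were DESeq2 1.42.0, limma-voom (3.58.1), RLE, upper-quartile or library-size scaling, no filter, 1 CPM in 3 libraries, 2 groups only, a replicate block, each library left out, a stricter 0.01, and limma on the deposited signal as log2, plus 1 or plus 0.1, where its mean was at least 0.5. Leaving out Control 3 and Val+PA 2 together was added after seeing the data. On simulated counts, 2-fold changes were recovered for 56 of 96 genes in Valine against Control, 60 of 99 in Val+PA against Valine and 61 of 96 in Val+PA against Control. In the same order, 14, 12 and 4 unchanged genes were called. These shares hold for the simulated counts only. In the real libraries the median SD of all tested genes on the log2 scale was 0.252 in Val+PA, 0.0989 in Valine and 0.215 in Control.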

Additional observations from a re-analysis of the deposited data

How the results depend on the processing

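No called fold change of the 39 genes reversed under any of the alternatives. In Val+PA against Valine the number of the 39 genes higher became 2 with no filter (Creld2 and Fkbp11), 2 without both Control 3 and Val+PA 2 (Hspa5 and Fkbp11) and 1 with DESeq2 (Fkbp11). Among all genes the number called in that comparison ran from 0 to 476 higher and from 0 to 292 lower over the alternatives. In Valine against Control the number higher became 5 at a threshold of 0.01. Leaving out each library in turn gave 5 to 10 higher and 15 to 19 lower in Valine against Control, 0 in either direction in Val+PA against Valine, and 8 to 10 higher and 14 to 18 lower in Val+PA against Control. Without both Control 3 and Val+PA 2 the numbers were 12 higher and 20 lower in Valine against Control and 12 and 19 in Val+PA against Control. Calls among all genes moved too. For Valine against Control, leaving out single libraries gave 2970 to 4557 higher, and 2826 to 4687 lower. For Val+PA against Control it gave 3071 to 4011 higher, and 2876 to 3852 lower. The count of all genes without both libraries is not given here. Whether the larger counts were particular to the 39 genes was therefore not tested. The causes were not tested. The correlations of same-numbered deviations ran from -0.272 to 0.158 and those of different-numbered ones from -0.326 to 0.282. These ranges gave no sign of pairing by replicate number, but with 3 libraries per group they cannot exclude it. The fit with the replicate block called 7 higher and 18 lower in Valine against Control, 0 in Val+PA against Valine, and 8 and 17 in Val+PA against Control. Depth limits Derl3 and Fkbp2.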
